A study of Mus musculus with 24 samples.

Results

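SWI/SNF complexes are chromatin remodellers that use ATP to slide or evict nucleosomes. The 31 mouse genes described here encode their subunits. They were taken by name as a list of subunit genes and not by a cutoff on any measured value, though earlier results of these data were known. They stand among 21900 protein-coding genes of the RefSeq table of GRCm38.p6, the assembly of mm10. Around them, peaks of CUT&RUN libraries were counted in a gene-end window, 1 kb on either side of either RefSeq gene end, and in a locus, the gene plus 20 kb on each side. Of 197727 peaks in all lists, 243 lay at a gene end of a member and 803 in a member locus.

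The study profiled chromatin proteins and the promoter mark H3K4me3 in a pair of mouse melanoma lines, to learn what the histone methyltransferase KMT2D does there. Line 493 carries a mutant Kmt2d gene (called mutant here) and line 971 is Kmt2d wild type (WT). Both were cultured in the same serum-containing medium, with no treatment given in the labels. CUT&RUN releases the DNA next to an antibody-bound protein with a tethered nuclease, and 22 libraries had a peak list, 12 mutant and 10 WT. H3K4me3, Menin, UTX, SMARCC1, ARID1A, ARID2, PBRM1, BRD9 and TFAP2A had a list in both lines. TFAP2B and SOX10 (antibodies T and U) were used here in the mutant line only, and KMT2D in the WT line only. Each target had 1 library per line, so there is no replicate, no error and no test, and every difference compares 2 libraries. With 1 line per genotype, the mutation and the line cannot be told apart. The 2 IgG libraries, 1 per line, were not analysed here.

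Of 10 pigment cell markers, 3 had H3K4me3 at a gene end in the mutant line (Mitf, Sox10 and Pmel) and 2 in the WT line (Mitf and Pmel). Tyr, Tyrp1, Dct and Mlana had no peak of any library there. H3K4me3 lay at 0 of 6 blood cell markers in either line, at 1 of 6 keratinocyte markers in each (Krt10), at 1 of 4 endothelial markers in each (Kdr) and at 3 of 6 fibroblast markers in each (Col1a1, Pdgfra and Pdgfrb). The depth at which peaks were called was 1.58 to 1.87 times higher in the mutant list for H3K4me3, Menin, UTX, ARID1A and TFAP2A, and 0.394 times the WT depth for SMARCC1. Fold enrichment is the authors' value for signal over background at a peak's summit, and its size is compared only within a list.

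SWI/SNF subunits assemble into 3 related complexes around a shared ATPase and core. Canonical BAF is defined by ARID1A or ARID1B, PBAF by ARID2, PBRM1 and BRD7, and non-canonical BAF by BRD9 with BICRA or BICRAL. Several subunits come as families of which a complex holds only one member, and some members are used mainly in neurons, muscle or lymphocytes. Genes of several subunits are recurrently mutated in cancers, melanoma among them. Menin is a subunit of the KMT2A and KMT2B methyltransferase complexes, UTX is a demethylase in the KMT2D complex, and TFAP2A and SOX10 are transcription factors of the melanocyte lineage.

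Most subunit genes carried an active promoter mark in both lines. H3K4me3 lay at a gene end of 28 of 31 members in mutant cells, against 53.8% of all protein-coding genes, and at 28 of 31 in WT cells, against 49.3%. The 28 genes were the same in both lines. Menin lay at 25 members in mutant cells (37.9% of all genes) and at 23 in WT cells (31.6%). Set against genes with H3K4me3 in the same line, of which 70.1% in mutant and 63.3% in WT had Menin, the members' counts were 24 of 28 in mutant and 22 of 28 in WT.

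**Figure D1:**
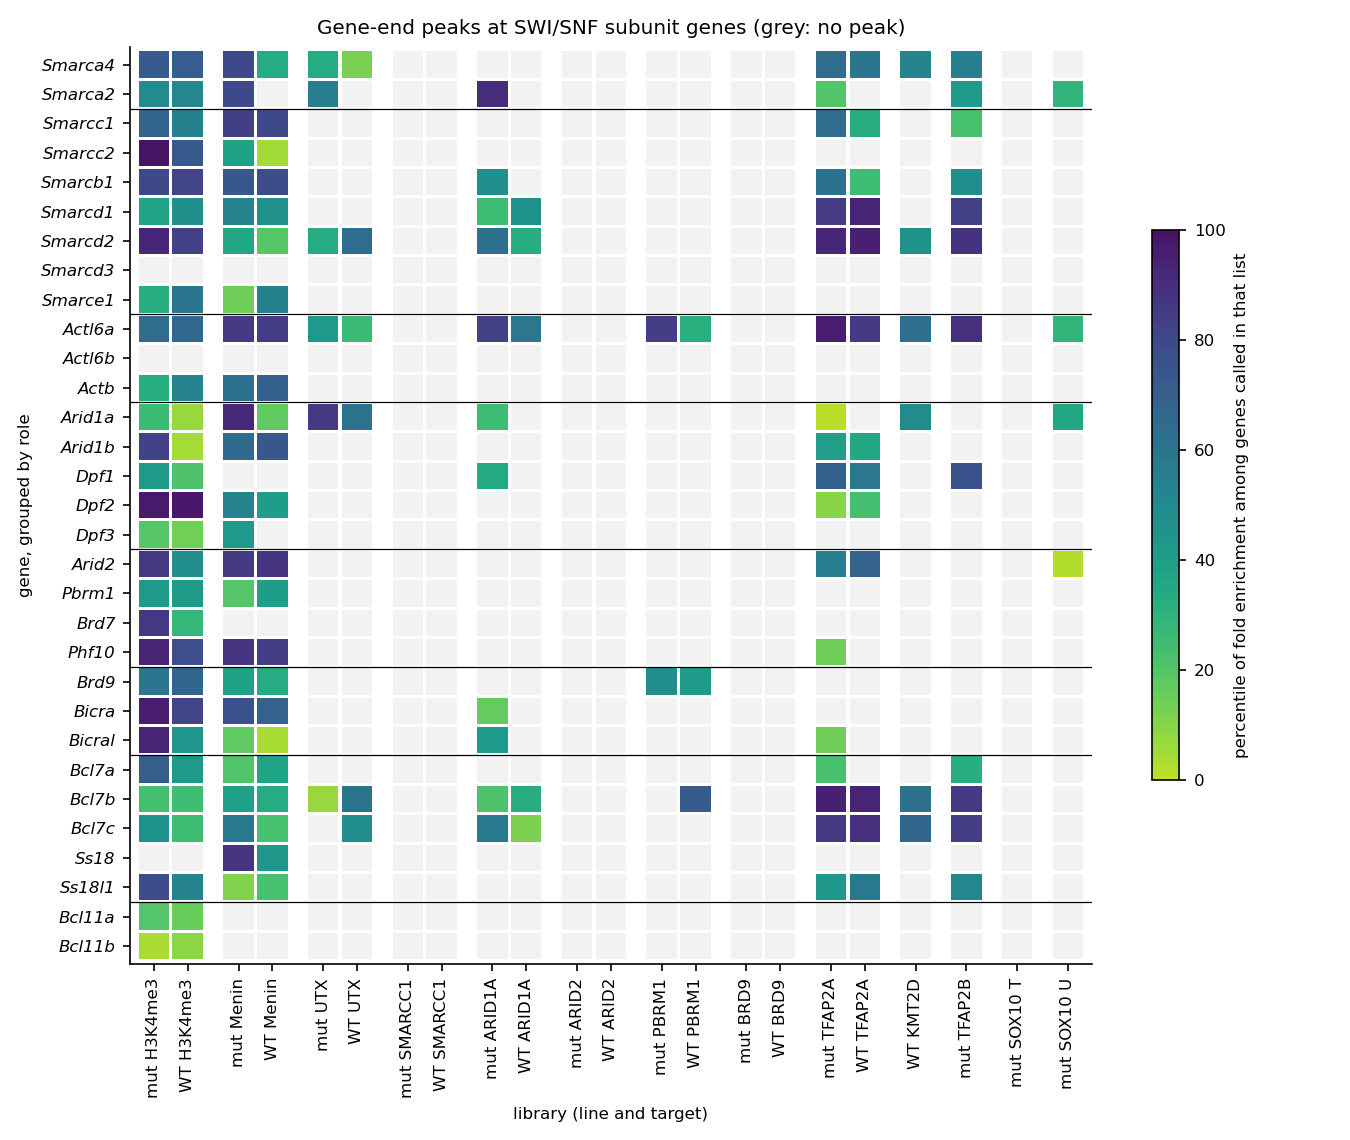
Gene-end peaks at the 31 members (rows, grouped by role: ATPases, core, actin-related module, canonical BAF, PBAF, non-canonical BAF, accessory subunits, BCL11 factors) in 22 libraries (columns, mutant left of WT). Colour gives the percentile of the member's highest fold enrichment among all genes called in that list, and grey means no peak. The H3K4me3 and Menin columns are nearly full, and the SMARCC1, ARID2 and BRD9 columns are empty. The Smarca2 row holds 7 mutant libraries and 1 WT library, or 5 and 1 among targets with a list in both lines.

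The other targets reached fewer members. TFAP2A lay at a gene end of 18 members in mutant cells (34% of all genes) and of 13 in WT cells (24.6%), and TFAP2B at 12 in mutant cells (21.9%). ARID1A lay at 11 members in mutant cells (20.9%) and at 5 in WT cells (15.7%). UTX lay at 6 members in mutant cells (8.86%) and at 6 in WT cells (11.2%), and KMT2D at 6 in WT cells (10.2%). SOX10 lay at 4 members with antibody U in mutant cells (3.83%) and at 0 with antibody T (0.991%). PBRM1 lay at 2 members in mutant cells (2.03%) and at 3 in WT cells (1.9%).

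SMARCC1, ARID2 and BRD9, themselves SWI/SNF proteins, had no peak at a gene end of any member in either line. Over all genes SMARCC1 lay at 0.598% in mutant and 2.72% in WT cells, ARID2 at 0.932% in mutant and 0.986% in WT, and BRD9 at 0.0183% in mutant and 0.21% in WT. A count of 0 in 31 genes lies near these shares.

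Among genes with H3K4me3 in the same line, the shares over all genes were near those of the members for most targets. TFAP2A covered 61.1% of such genes in mutant and 47.9% in WT cells, and the 28 marked members held it at 18 in mutant and 13 in WT cells. ARID1A covered 36.4% of such genes in mutant and 29% in WT cells, and the marked members held it at 11 in mutant and 5 in WT cells. KMT2D covered 19.7% of such genes in WT cells and 6 of the 28 members. The 47 genes of the other remodeller families (ISWI, CHD and NuRD, INO80, SRCAP and EP400) had H3K4me3 at 45 in mutant and 43 in WT cells and Menin at 37 in mutant and 28 in WT cells. In that set TFAP2A lay at 31 in mutant and 25 in WT cells, ARID1A at 21 in mutant and 12 in WT cells, UTX at 12 in mutant and 11 in WT cells, and KMT2D at 11 in WT cells.

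**Figure D2:**
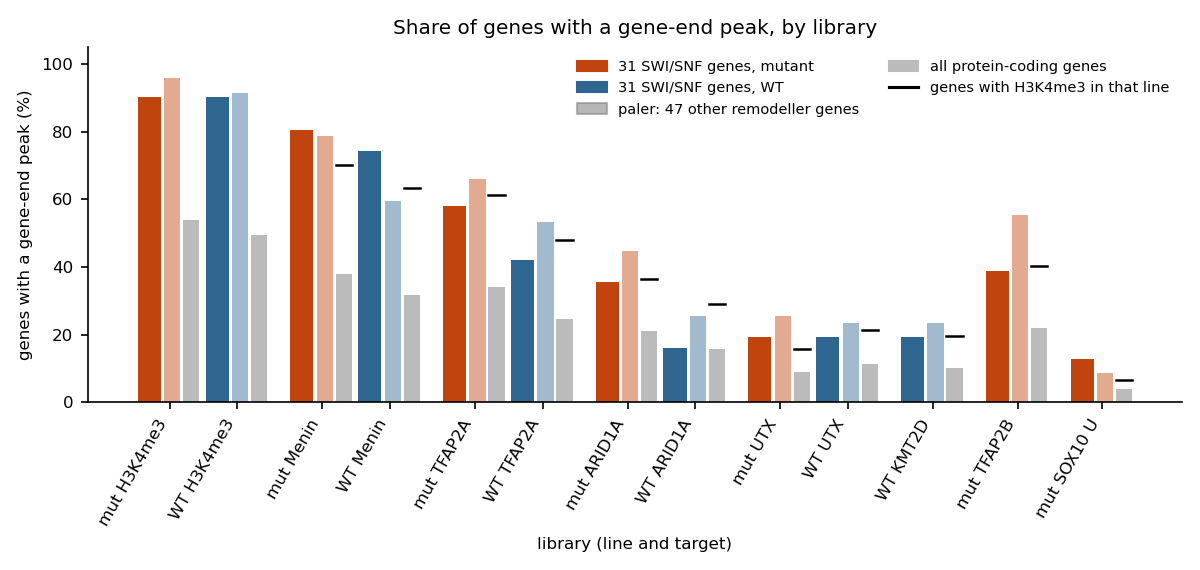
Share of genes with a gene-end peak (y axis, percent) for the targets that reached most members, with the mutant library left of the WT library. Full-colour bars are the 31 members, paler bars the 47 other remodeller genes, grey bars all 21900 protein-coding genes, and black ticks the genes with H3K4me3 in the same line. Members stand well above all genes for H3K4me3 and Menin, and near the black ticks for TFAP2A, UTX and KMT2D.

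Of the ATPase genes, Smarca2 differed between the lines in the targets called and Smarca4 did not. Smarca4 (BRG1) and Smarca2 (BRM) encode the alternative motors of the complex. At the Smarca2 start, on chromosome 19, 7 mutant libraries had a peak and only H3K4me3 did in WT cells. TFAP2B and SOX10 were profiled in mutant cells only. Among targets with a list in both lines, 5 mutant libraries and 1 WT library had a peak at this start. Mutant fold enrichments there were 22.7 for H3K4me3, 12.8 for Menin, 8.70 for UTX, 20.7 for ARID1A, 5.94 for TFAP2A, 7.11 for TFAP2B and 4.53 for SOX10 (antibody U). The WT H3K4me3 value was 15.2. The mutant summits of Menin, ARID1A, UTX, TFAP2B and SOX10 lay 147, 142, 176, 142 and 175 bp upstream of the RefSeq start, and the strongest TFAP2A summit 203 bp upstream. The ARID1A peak stood at percentile 91.3 among genes called in that list.

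The bases below are shown because all 6 of those summits fall inside them. They run from 250 bp upstream of the RefSeq start to the last base before the annotated gene, on GRCm38.p6, and capitals mark 21 bases centred on the mutant ARID1A summit.
Smarca2, chr19:26604910-26605072, plus strand: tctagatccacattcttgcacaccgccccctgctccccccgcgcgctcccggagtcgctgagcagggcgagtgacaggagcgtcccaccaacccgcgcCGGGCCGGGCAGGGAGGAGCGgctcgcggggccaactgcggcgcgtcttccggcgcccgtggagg

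Smarca2 was the only member at which Menin, UTX, ARID1A and TFAP2A were all called in mutant and not in WT cells. Over all genes, calls in mutant cells alone were made at 8.28% for Menin, 2.14% for UTX, 7.94% for ARID1A and 10.6% for TFAP2A. The mutant lists of these 4 targets were also the deeper ones. Under 8 other settings, among them equal numbers of peaks and equal depth, Smarca2 remained called in mutant cells alone in 8 of 8 for Menin, UTX and ARID1A, and in 7 of 8 for TFAP2A. The loss came with equal numbers of peaks. Farther inside the gene, 1458 bp or more from its upstream end, a stretch of Menin, TFAP2A, TFAP2B and UTX peaks was also seen in mutant cells. The WT line had H3K4me3 alone there, and TFAP2B was not profiled in it. A site 29365 bp or more from the far end, chr19:26747000-26749274, had H3K4me3 and Menin in both lines and ARID1A in WT cells alone. KMT2D, not profiled in mutant cells, also lay there in WT cells.

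**Figure D3:**
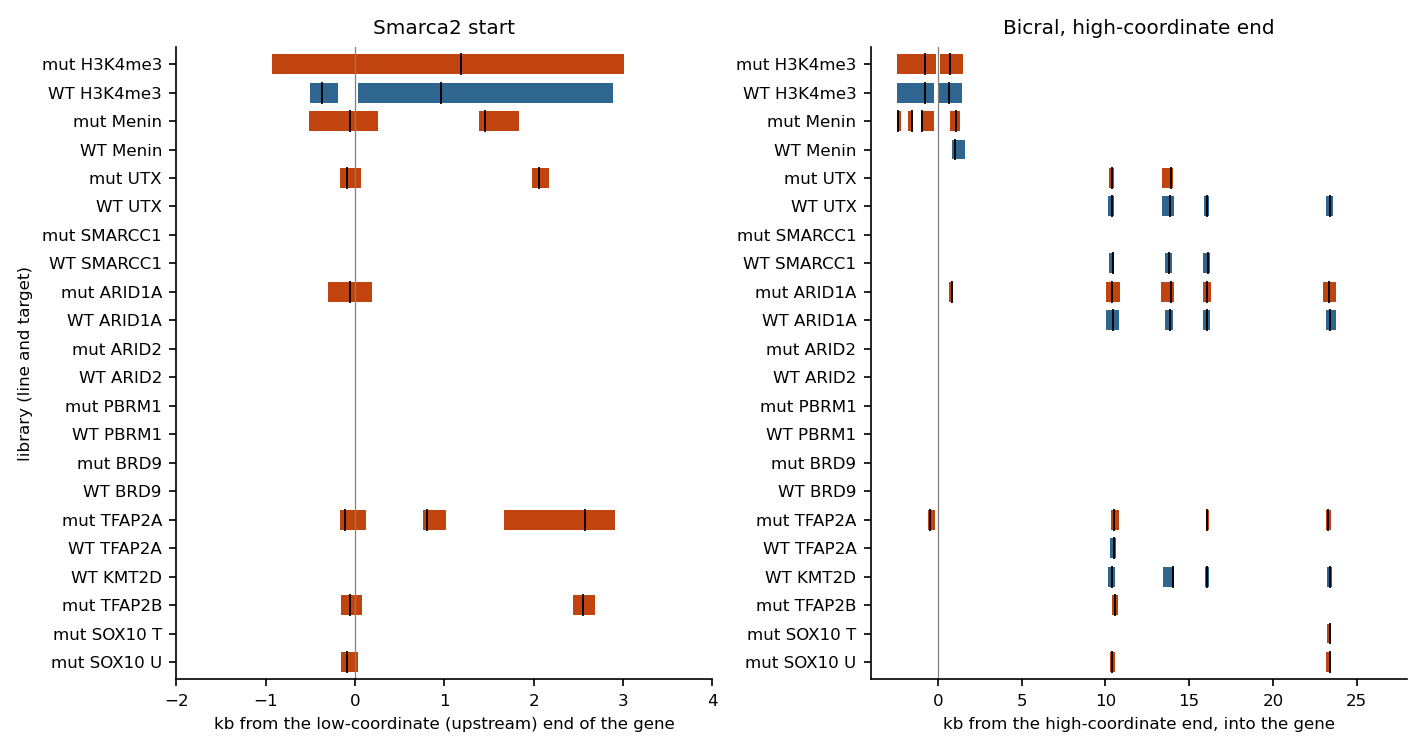
Peaks as bars (black tick: summit) in each library, mutant rows above WT rows, around the upstream end of Smarca2 (left; x axis in kb, positive into the gene) and from the high-coordinate end of Bicral into the gene (right; x axis in kb). At Smarca2, 7 mutant libraries and 1 WT library overlap the end, with TFAP2B and SOX10 profiled in mutant cells only. Inside Bicral, all 4 sites with KMT2D in WT cells have ARID1A in both lines.

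Smarca4 had the same targets in both lines. Fold enrichments were 29.4 in mutant and 18.9 in WT cells for H3K4me3, 12.8 in mutant and 6.61 in WT for Menin, 6.09 in mutant and 5.44 in WT for UTX, and 16.1 in mutant and 12.6 in WT for TFAP2A. KMT2D in WT cells (12.1) had its summit 68 bp upstream of the start, and UTX summits lay 129 bp upstream in mutant and 83 bp upstream in WT cells. ARID1A had no peak in the Smarca4 locus in either line. The stretch before the gene is shown because the KMT2D summit lies at its edge. Capitals mark the 15 bases up to the gene that lie within 10 bp of that summit.
Smarca4, chr9:21615919-21616105, plus strand: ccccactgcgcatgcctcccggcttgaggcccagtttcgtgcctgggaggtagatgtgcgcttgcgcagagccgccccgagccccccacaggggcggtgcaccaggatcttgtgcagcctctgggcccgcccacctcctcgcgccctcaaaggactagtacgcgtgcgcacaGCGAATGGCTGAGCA

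The core genes were marked at a gene end in both lines, except Smarcd3, which was marked at an internal RefSeq start. Smarcc1 and Smarcc2 encode the paired scaffold proteins, Smarcb1 a subunit that contacts the nucleosome, Smarcd1, Smarcd2 and Smarcd3 alternative BAF60 proteins, and Smarce1 an HMG-box subunit. Smarcc1, whose protein was profiled, had 28.1 in mutant and 15.7 in WT cells for H3K4me3, 14.0 in mutant and 11.8 in WT for Menin, and 16.1 in mutant and 7.59 in WT for TFAP2A. TFAP2B in mutant cells gave 5.33 there. No SMARCC1 peak lay at that gene end. Smarcb1 had ARID1A in mutant cells alone (7.92), with TFAP2A at 15.3 in mutant and 6.57 in WT cells.

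Smarcd2 carried the most targets in the core. At its upstream end, TFAP2A reached 48.4 in mutant and 41.7 in WT cells, UTX 6.09 in mutant and 16.1 in WT, ARID1A 10.0 in mutant and 6.0 in WT, and KMT2D 10.7 in WT cells. The TFAP2A values stood at percentiles 93.3 in mutant and 95.3 in WT among genes called in their lists. This end lies 22 bp from Tcam1, so the peaks are shared with that gene. Smarcd1 had TFAP2A at 31.4 in mutant and 39.5 in WT cells and ARID1A at 5.80 in mutant and 7.13 in WT. Smarcc2 and Smarce1 had H3K4me3 and Menin only, in both lines.

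Of the 3 actin-related genes, Actl6a and Actb had H3K4me3 at an end and Actl6b did not. Actl6a, the BAF53A gene used in dividing cells, had the most libraries of any member, 8 mutant and 7 WT. Its TFAP2A values were 61.1 in mutant and 25.7 in WT cells, ARID1A 15.7 in mutant and 8.44 in WT, UTX 6.96 in mutant and 7.30 in WT, and PBRM1 15 in mutant and 7.33 in WT. KMT2D in WT cells was 15.1, and in mutant cells TFAP2B was 23.1 and SOX10 with antibody U 4.53. This region was called in at least 15 libraries, so it was not particular to any target. Actl6b, the neuronal counterpart, had no gene-end peak in any library, and a WT TFAP2A peak 11351 bp away was its nearest outside other genes' ends. Actb, which encodes beta-actin, had H3K4me3 and Menin at its ends in both lines. Inside Actb, beyond the windows, chr5:142905332-142906781 had KMT2D at 46.4 in WT cells. UTX was 11.3 in mutant and 33.5 in WT cells there, and TFAP2A 38.2 in mutant and 19.9 in WT. KMT2D was not profiled in mutant cells. With a window of 2.5 kb, Actb was called for KMT2D, and for UTX and TFAP2A in both lines. The bases upstream of Actl6a are shown because 7 mutant and 5 WT libraries, KMT2D included, have a peak at the KMT2D site there. The 21 bases around the KMT2D summit are in capitals.
Actl6a, chr3:32708296-32708545, plus strand: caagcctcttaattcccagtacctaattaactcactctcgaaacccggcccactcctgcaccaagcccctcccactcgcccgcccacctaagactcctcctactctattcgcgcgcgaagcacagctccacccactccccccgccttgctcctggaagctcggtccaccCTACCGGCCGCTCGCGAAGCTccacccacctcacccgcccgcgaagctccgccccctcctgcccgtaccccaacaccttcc

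Among canonical BAF genes, Arid1a carried a site upstream of its start. Its protein, ARID1A, was profiled, and in mutant cells ARID1A itself lay at the gene end (5.80) while in WT cells it did not. This call was lost with a −log10 q of at least 5 and held in 7 of 8 other settings. Mutant values were 14.9 for H3K4me3, 17.4 for Menin, 18.2 for UTX, 3.38 for TFAP2A and 4.98 for SOX10 (antibody U). WT values were 5.34 for H3K4me3, 5.52 for Menin, 14.8 for UTX and 11.3 for KMT2D. The strongest UTX summits lay 800 bp upstream in mutant and 776 bp upstream in WT cells, SOX10 776 bp upstream in mutant cells, and KMT2D 756 bp upstream in WT cells. The TFAP2A value was at percentile 0.416 of its list, and TFAP2A at Arid1a remained mutant alone in 3 of 8 other settings. Inside the gene, beside a second RefSeq start, TFAP2A lay in both lines, at 7.64 in mutant and 7.59 in WT cells. With starts only, Arid1a was called for TFAP2A in both lines.

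Arid1b, which encodes the alternative to ARID1A, had H3K4me3 at 33.0 in mutant and 4.82 in WT cells, with gene-end peaks of 3913 bp in mutant and 792 bp in WT cells. The mutant peak also covers a WT H3K4me3 peak of fold enrichment 13.6 that lies beyond the window. Within the gene, chr17:5094832-5095144 had ARID1A, SMARCC1 and TFAP2A in WT cells and no mutant peak. The Dpf genes encode PHD-finger proteins of the BAF45 family. Dpf1 had ARID1A in mutant cells alone (6.50), TFAP2A at 18.7 in mutant and 12.3 in WT cells, and TFAP2B at 14.2 in mutant cells. Dpf3 had Menin in mutant cells alone (7.68), and this call held in 8 of 8 other settings. Dpf2 had H3K4me3 at 45.7 in mutant and 29.2 in WT cells, at percentile 98.0 of the mutant list and 98.6 of the WT list.

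The Dpf1 window held a match to the TFAP2 letters GCCNNNGGC, here 83 bp upstream of the RefSeq start. Whether the match is bound was not tested, and it is in capitals.
Dpf1, chr7:29303755-29303951, plus strand: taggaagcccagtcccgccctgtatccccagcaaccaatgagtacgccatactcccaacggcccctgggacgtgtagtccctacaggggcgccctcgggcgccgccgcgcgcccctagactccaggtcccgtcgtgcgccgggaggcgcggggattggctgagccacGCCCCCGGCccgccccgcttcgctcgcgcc

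None of the 4 PBAF genes had ARID1A or UTX at an end in either line, or KMT2D in WT cells. Over all genes ARID1A lay at 20.9% in mutant and 15.7% in WT cells, UTX at 8.86% in mutant and 11.2% in WT, and KMT2D at 10.2% in WT, so a count of 0 among 4 genes shows no difference from all genes. These are Arid2 and Pbrm1, whose proteins define the complex, Brd7, a bromodomain gene, and Phf10, which encodes BAF45A. Arid2 had H3K4me3 at 35 in mutant and 14.7 in WT cells, Menin at 14.5 in mutant and 13.9 in WT, TFAP2A at 13.0 in mutant and 15.4 in WT, and a weak SOX10 peak (3.40, antibody U) in mutant cells. Pbrm1 had H3K4me3 at 20.5 in mutant and 13.3 in WT cells and Menin at 5.73 in mutant and 7.14 in WT. Pbrm1 starts 7 bp from Gnl3, so both genes share those peaks. The low-coordinate end of Arid2 lies 124 bp from Gm38469, so peaks there are shared too. The mutant H3K4me3 value of 35, the WT Menin value and the TFAP2A and SOX10 values come from peaks outside Arid2, on the Gm38469 side. The mutant H3K4me3 peak that overlaps Arid2 itself gave 25.8, and the WT H3K4me3 value is from a peak inside the gene. Phf10 had TFAP2A in mutant cells alone (5.09), and Brd7 had H3K4me3 and no Menin in either line.

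In non-canonical BAF, Brd9 carried PBRM1 in both lines, at 8.76 in mutant and 7.98 in WT cells. Its H3K4me3 values were 25.6 in mutant and 18.1 in WT cells, and its Menin values 7.32 in mutant and 6.61 in WT. Brd9 lies 6 bp from Trip13, which shares the start. BRD9 itself had no peak there. Bicra and Bicral, which encode the GLTSCR1 proteins, each had ARID1A in mutant cells alone at an end, at 5.09 and 7.21. The high-coordinate end of Bicral lies 179 bp from Tbcc, so peaks there are shared with that gene. The TFAP2A peak called there in mutant cells alone lies outside Bicral, on the Tbcc side.

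Bicral held a cluster of sites with KMT2D inside the gene, with summits 10382 to 23415 bp from its high-coordinate end. At chr17:46879558-46880386 ARID1A was 39.6 in mutant and 25.8 in WT cells, UTX 20.7 in mutant and 22.9 in WT, and TFAP2A 20.7 in mutant and 8.71 in WT. In WT cells KMT2D was 19.1 and SMARCC1 9.85 there, and in mutant cells TFAP2B was 6.58 and SOX10 with antibody U 8.51. KMT2D was profiled in WT cells only, and TFAP2B and SOX10 in mutant cells only. The mutant SMARCC1 list was called at 0.394 times the WT depth. At chr17:46866675-46867431 SOX10 gave 18.7 with antibody T and 10.2 with antibody U in mutant cells, and ARID1A 35.8 in mutant and 23.0 in WT cells. UTX and KMT2D lay there in WT cells, at 10.7 each. At the other 2 sites, chr17:46874158-46874624 and chr17:46876357-46877129, ARID1A was again present in both lines and SMARCC1 and KMT2D in WT cells.

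Of the accessory genes, Bcl7b and Bcl7c had TFAP2A high in both lists. Bcl7a, Bcl7b and Bcl7c encode small subunits of the complex, and Ss18 and Ss18l1 the paralogous SS18 and CREST proteins. Bcl7b had TFAP2A at 57.7 in mutant and 38.4 in WT cells, and Bcl7c at 32.2 in mutant and 30.1 in WT. Bcl7b also had UTX at 4.24 in mutant and 14.5 in WT cells, ARID1A at 5.62 in mutant and 6.0 in WT, KMT2D at 14.9 in WT cells, and PBRM1 in WT cells alone (11.5, against 0.539% of all genes). Bcl7c had UTX in WT cells alone (10.8), the only member with a call of this kind. Over all genes such UTX calls were made at 4.43%, and the Bcl7c call held in 8 of 8 other settings. At Bcl7c ARID1A was 9.33 in mutant and 4.57 in WT cells and KMT2D 16.7 in WT cells, its highest value at a member's gene end. The bases before the Bcl7c gene are shown because the KMT2D summit lies 160 bp upstream of the start, with 21 bases around it in capitals.
Bcl7c, chr7:127708767-127709016, minus strand: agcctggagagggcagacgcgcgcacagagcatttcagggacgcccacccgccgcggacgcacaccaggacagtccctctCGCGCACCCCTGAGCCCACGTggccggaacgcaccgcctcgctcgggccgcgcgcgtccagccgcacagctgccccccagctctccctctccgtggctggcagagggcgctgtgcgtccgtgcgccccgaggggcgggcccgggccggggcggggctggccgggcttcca

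Bcl7c also held the highest TFAP2A value in a member outside a gene end. At chr7:127691334-127692072, with the mutant TFAP2A summit 17099 bp inside the gene, TFAP2A was 63.2 in mutant and 49.4 in WT cells, ARID1A 34.2 in mutant and 19.0 in WT, and SMARCC1 6.42 in mutant and 5.06 in WT. TFAP2B was 29.4 in mutant cells, and KMT2D (8.13) and UTX (6.20) lay there in WT cells. Bcl7a had TFAP2A in mutant cells alone (6.07). Ss18 had Menin at an end at 15.1 in mutant and 7.40 in WT cells, while its H3K4me3 peaks stopped short of the window. These Menin values are not from the same peak. The mutant peak also covers a WT Menin peak of fold enrichment 15.5 beyond the window, with its summit 2492 bp inside the gene. Bcl11a and Bcl11b, transcription factor genes that serve as subunits in brain and lymphoid cells, had H3K4me3 at an end in both lines and no other target.

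At 3 members H3K4me3 was stronger inside the gene than at an end in both lines. Smarcd3, the BAF60 gene known from heart and muscle, had no peak at either end. At an internal start annotated by RefSeq, chr5:24601181-24603525, its H3K4me3 was 22.2 in mutant and 7.42 in WT cells. Menin and TFAP2A peaks also lay in that region in both lines. Ss18 had H3K4me3 at 29.7 in mutant and 23.0 in WT cells, with summits 2081 bp and 2306 bp inside the end. Arid1a had H3K4me3 at 37.6 in mutant and 19.7 in WT cells beside a second RefSeq start inside the gene, higher in each list than at its outer end. Actl6b was the other member without the mark at an end.

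The 6 members with KMT2D at a gene end were Smarca4, Smarcd2, Actl6a, Arid1a, Bcl7b and Bcl7c. They were also the 6 with UTX at an end in WT cells. Over all genes, 84.7% of genes with KMT2D at an end had UTX in WT cells, and 77.1% of the UTX genes had KMT2D. In mutant cells UTX lay at 5 of those 6 members, against 60.8% of all KMT2D genes, and at 1 of the other 25, Smarca2. ARID1A lay at 5 of the 6 in mutant cells (86.7% of all KMT2D genes) and at 4 of the 6 in WT cells (78.6%). H3K4me3 lay at all 6 in both lines, against 96.9% of all KMT2D genes in mutant and 95.8% in WT cells. Menin also lay at all 6 in both lines, against 88.3% in mutant and 81.7% in WT cells. TFAP2A lay at an end of all 6 in mutant cells (90.6%) and of 5 of 6 in WT cells (79.5%). Arid1a, the one without it, had WT TFAP2A inside the gene. The members' counts lie near these shares.

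All 12 members with TFAP2B in mutant cells had TFAP2A there, and they made up 66.7% of the 18 TFAP2A members. Over all genes, 96.9% of TFAP2B genes had TFAP2A and 62.5% of TFAP2A genes had TFAP2B. Of the 11 members with ARID1A in mutant cells, 10 had TFAP2A (90.9%), and over all genes 82.7% did. The exception was Bicra.

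Where calls differed between the lines they were mainly mutant calls. For ARID1A, 6 members were called in mutant cells alone (7.94% of all genes) and 0 in WT cells alone (2.76%). The 5 with the highest values were Smarca2 (20.7), Smarcb1 (7.92), Bicral (7.21), Dpf1 (6.50) and Arid1a (5.80). For TFAP2A 5 members were called in mutant cells alone (10.6%) and 0 in WT cells alone (1.21%), namely Smarca2, Arid1a, Phf10, Bicral and Bcl7a, with values of 3.38 to 6.07. For Menin the counts were 2 in mutant cells alone (8.28%) and 0 in WT cells alone (1.92%), and for UTX 1 in mutant cells alone (2.14%) and 1 in WT cells alone (4.43%). H3K4me3 differed at 0 members, against 5.09% of all genes in mutant cells alone and 0.543% in WT cells alone. Among genes with H3K4me3 in both lines, 14.5% had ARID1A and 18.9% TFAP2A in mutant cells alone. The mutant lists were deeper. With equal depth the same 6 ARID1A members, the 2 Menin members and the UTX member were called in mutant cells alone. Over all other settings the ARID1A calls held in 8 of 8 at Smarca2 and Dpf1 and in 7 of 8 at Arid1a and Smarcb1. They held in 6 of 7 at Bicral and in 5 of 7 at Bicra, where equal numbers of peaks was a setting that lost the call. In mutant cells alone the TFAP2A count was 2 (Smarca2 and Bcl7a) with equal depth and 0 with equal numbers of peaks.

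Median summit positions lay inside the genes for H3K4me3, and nearer the start for TFAP2A, ARID1A and KMT2D. They are medians of signed positions. Upstream and downstream summits offset each other, so a median near the start does not show that single summits lie near it. Only start-end summits within 2.5 kb of a RefSeq start were used, which leaves out members with no start in the table, Smarcd2 and Bcl11a, and peaks at far ends. Median positions were 485.5 bp downstream in mutant and 368 bp downstream in WT cells for H3K4me3, and 154 bp downstream in mutant and 120 bp downstream in WT cells for TFAP2A. ARID1A had a median of 112.5 bp upstream over 8 peaks in mutant cells, and 170 bp downstream over 4 peaks in WT cells. The KMT2D median was 71 bp upstream over 5 peaks in WT cells. Menin medians were 76.5 bp downstream in mutant and 66 bp upstream in WT cells. Single Menin summits ranged from 1393 bp upstream to 1140 bp downstream in mutant cells.

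**Figure D4:**
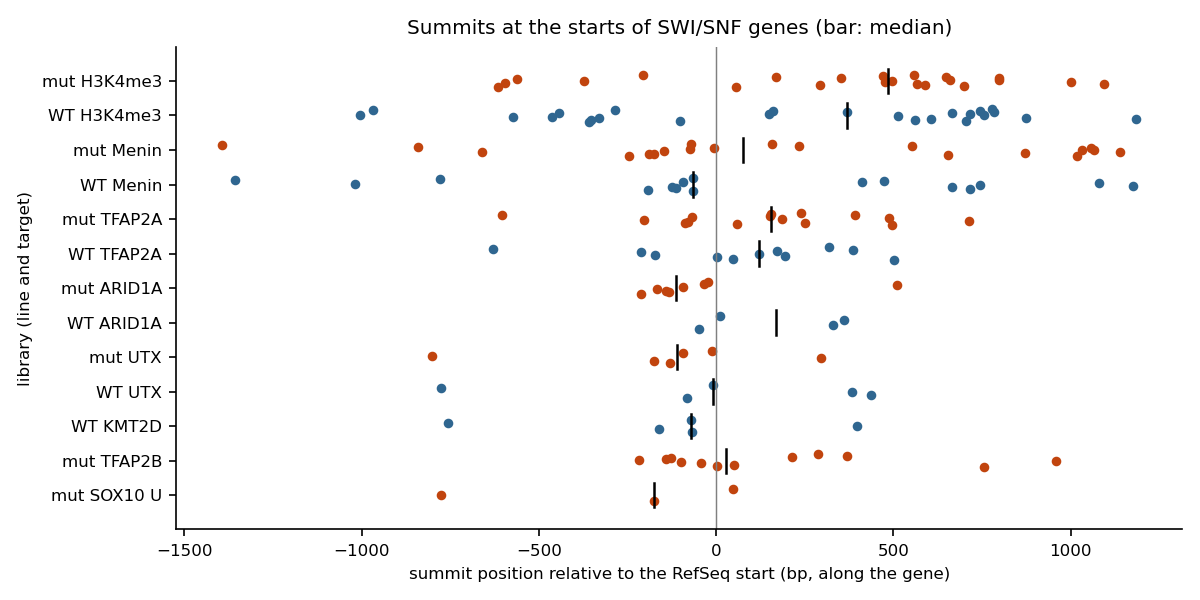
Position of each gene-end peak summit along the gene relative to the RefSeq start (x axis, bp; negative is upstream), for summits within 2.5 kb of that start, by library with mutant rows above WT rows. Points are peaks and black bars medians. H3K4me3 medians lie at 485.5 bp in mutant and 368 bp in WT cells, and the KMT2D median at -71 bp. Members with no RefSeq start in the table, Smarcd2, Bcl11a and far-end peaks are left out.

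The summed length of H3K4me3 peaks at the ends had a median ratio near 1, with a few genes apart from it. The median over 28 members was 2366.5 bp in mutant and 2244.5 bp in WT cells. The median ratio of mutant to WT was 1.02 for members, with 15 of 28 longer in mutant cells, and 1.02 for all 10668 genes marked in both lines, with 53.3% longer. Arid1b (ratio 4.94), Smarcc2 (4.30) and Bcl7c (2.0) had the largest ratios and Bcl11b (0.465) the smallest. When peaks that overlap an end peak of the other line were counted too, a setting added after seeing the data, the ratio was 1.28 for Arid1b and 1.21 for Smarcc2. Bcl7c and Bcl11b kept theirs. At Smarcc2 the mutant length of 6122 bp, against 1423 bp in WT cells, included a peak of 3896 bp at the far end that also covers Myl6, 268 bp away. The WT line had that peak too (fold enrichment 63 in mutant and 35 in WT cells), just outside the window.

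The RefSeq promoter windows of the members, from 250 bp before to 50 bp after a start, were rich in CpG. A window was found for 24 of the 31 members, 26 windows in all, with a median of 33 CpG dinucleotides, against 13 in 21263 windows of protein-coding genes. Median GC content was 68.8% in members and 56.3% in all windows. The TFAP2 letters GCCNNNGGC, read on both strands, were in 7 member windows (26.9%) and in 19.9% of all windows. Of these members, Dpf1 and Ss18l1 had TFAP2A at an end in both lines, and Arid1a in mutant cells alone. Brd7, Smarcc2, Bcl11b and Smarcd3 had no TFAP2A gene-end peak in either line, though Smarcd3 had TFAP2A at its internal start. The SOX letters ACAAAG, read on both strands, were in 3 member windows (11.5%) and in 16.8% of all. Neither was in the windows of Smarca2, Smarca4, Actl6a and Bcl7c, and these letters are a description of the window only.

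Over the loci, members held more peaks per length than the loci of all genes for most targets. All loci include those of genes without H3K4me3, and loci of marked genes alone were not compared. Member loci together spanned 3.35 Mb. H3K4me3 gave 23.9 peaks per Mb in mutant and 25.1 in WT cells, against 10.8 in mutant and 9.77 in WT over all loci. TFAP2A gave 24.8 per Mb in mutant and 16.4 in WT cells, against 11 in mutant and 7.06 in WT over all loci. ARID1A gave 19.1 per Mb in mutant and 14.6 in WT cells, against 13.2 in mutant and 11.4 in WT over all loci. SMARCC1 went the other way in WT cells, with 2.99 per Mb against 5.42 over all loci, and gave 1.79 against 1.32 in mutant cells. KMT2D gave 7.77 per Mb in WT cells against 3.65, in 16 of the member loci.

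Over the 9 paired targets member loci held 376 peaks in mutant and 330 in WT cells. Of these, 117 in mutant and 102 in WT cells were at a member's own end, 111 in mutant and 94 in WT at an end of another gene, and 148 in mutant and 134 in WT at neither. The highest number in mutant cells was at Arid1a, with 28 in mutant and 17 in WT cells, and the highest in WT cells at Bicral, with 23 in mutant and 21 in WT cells. The fewest were at Bcl11a (2 in mutant and 2 in WT cells), Brd7 (2 in each), Bcl11b (1 in mutant and 2 in WT cells) and Dpf3 (3 in mutant and 1 in WT cells).

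**Figure D5:**
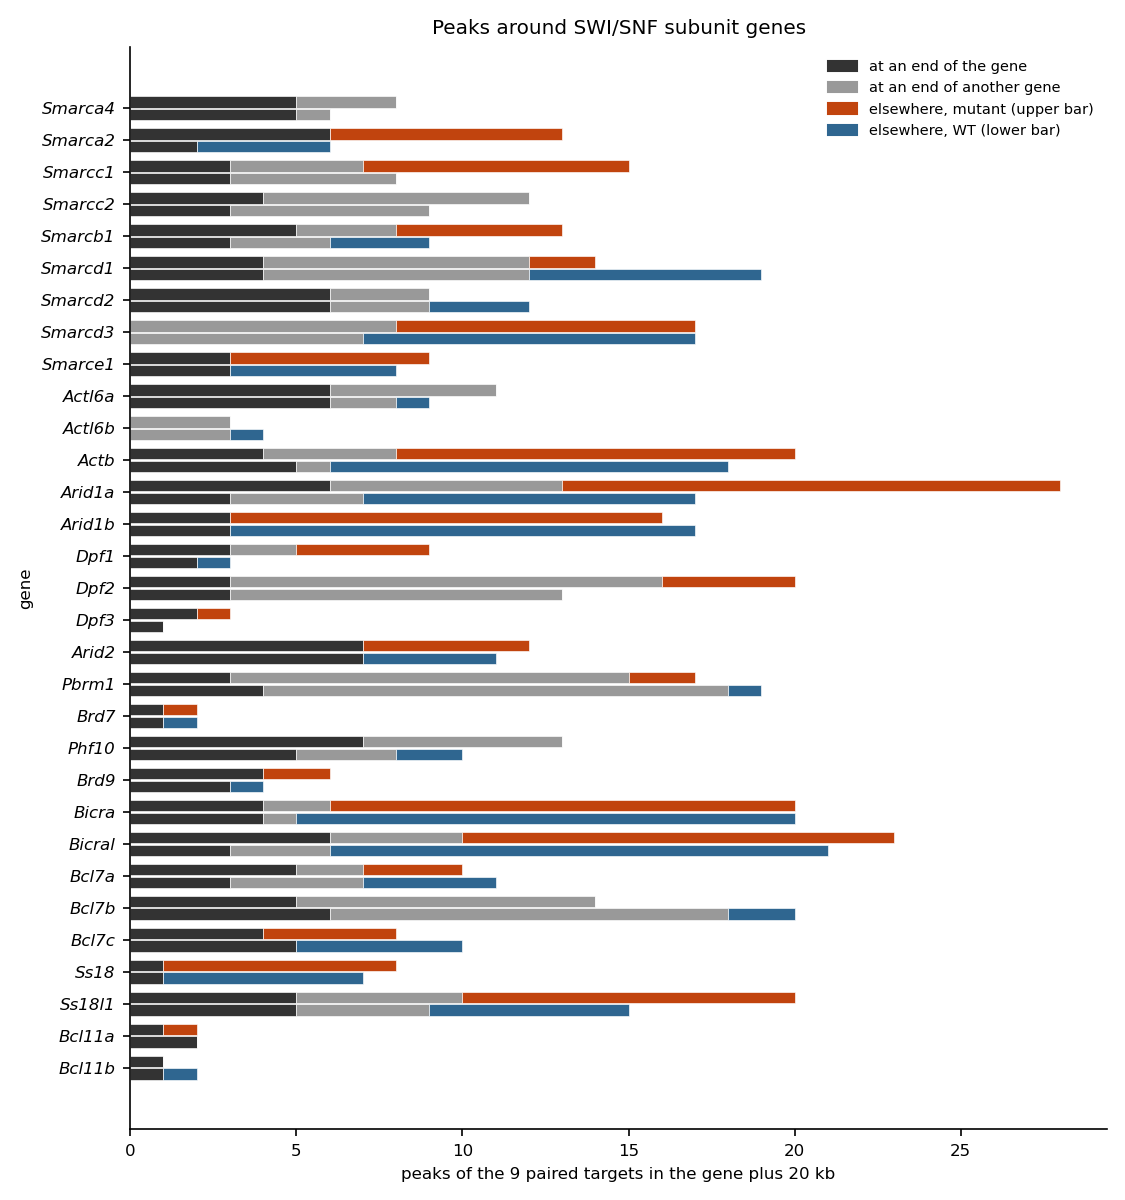
Number of peaks of the 9 paired targets (x axis) in each member gene plus 20 kb on each side (rows), with the mutant bar above the WT bar. Dark segments are peaks at the member's own ends, grey segments peaks at ends of other genes, and coloured segments all others. Arid1a has 28 mutant and 17 WT peaks.

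SMARCC1 reached member loci at 6 sites in mutant and 10 in WT cells, none at a member end. In mutant cells they included 1 site each in the loci of Actb, Bcl7c, Brd7 and Smarcc1 outside gene ends, and the Brd7 and Smarcc1 peaks were weak (2.90 each). In WT cells 3 of the 9 outside gene ends lay in Bicral. The Smarcc1 gene itself also held chr9:110205763-110206326 inside the gene, with ARID1A, UTX and SOX10 by both antibodies in mutant cells. No WT peak lay there, and SOX10 was not profiled in WT cells. No cause of any difference between the lines was tested.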

How the data were processed

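Peak lists of 22 CUT&RUN libraries were used as deposited, 12 from the Kmt2d mutant line and 10 from the WT line. Per the submitters' processing notes the reads were aligned with Bowtie2 to mm10 and peaks called with MACS2, with FastQC and MultiQC for quality. Tool versions, the caller's thresholds and its control are not given in the sources used here. The columns used, all made by the authors, were a deposited score, a fold enrichment (ratio), and −log10 values of p and q. No values were pooled or rescaled.

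A gene counted as called when a peak overlapped the 1 kb around either RefSeq gene end by at least 1 bp, since the gene table has no strand. The 21900 protein-coding genes are the background. Genes other than the 31 members are named only as neighbours sharing an end or as cell markers. Values were given for members whose H3K4me3, Menin, UTX or SMARCC1 calls differ between lines and members with KMT2D at an end. They were also given for members that encode a profiled protein and members without H3K4me3 at an end. Values of some targets were left out, such as H3K4me3 and Menin at Actl6a, Smarcd2, Bcl7b and Bcl7c. For TFAP2A and ARID1A the 5 highest among those called in 1 line were named. The members and lists were chosen with earlier results of these data known. Some members with other values were named as well, after their values were seen. Calling depth was rebuilt from summit values of fold enrichment and −log10 p. Alternatives were other windows, flanks, a −log10 q of at least 5, summit in the window, starts only, equal numbers of peaks, equal depth, and without regions called in 15 libraries or more. Simulated peaks served to check the overlap and depth code. Scripts ran under Python 3.11.15 with pandas 2.3.3, NumPy 2.4.6, SciPy 1.17.1, and for figures Matplotlib 3.10.9.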

Additional observations from a re-analysis of the deposited data

How the results depend on the processing

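No count has an error, because a target has 1 library in a line, and depth, list length and line cannot be separated. No paired analysis was possible because every group holds 1 library. The count of members with KMT2D, and the numbers of peaks in member loci over 6 targets, those whose lists in each line reach 1000 peaks (372 in mutant and 325 in WT cells), stayed within 1.5 times under the alternatives run for them. The median ratio of H3K4me3 length, 1.02, was the same when peaks overlapping an end peak of the other line were counted, a setting chosen after seeing the data. With a window of 500 bp, Menin in mutant cells alone was 5, and WT alone was 1 for H3K4me3 and 1 for Menin. With 2.5 kb, UTX in mutant cells alone was 3, and WT alone was 1 for SMARCC1 and 1 for ARID1A. With a −log10 q of at least 5, mutant alone was 2 for H3K4me3, 4 for Menin and 2 for TFAP2A, and WT alone was 1 for H3K4me3, 2 for Menin, 2 for UTX, 2 for ARID1A and 1 for TFAP2A. With the summit in the window, WT alone was 2 for H3K4me3 and 1 for Menin. With starts only, mutant alone was 1 for H3K4me3 and 2 for TFAP2A. With equal numbers of peaks, TFAP2A was 0 in mutant cells alone and 1 in WT cells alone. With equal depth, TFAP2A was 2 in mutant cells alone, and WT alone was 2 for Menin, 2 for UTX and 1 for TFAP2A. The cause of these moves was not tested.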
